A study of Mus musculus with 12 samples.

Results

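The uninjured retina of this series was represented by 6 libraries of 12, each made from the retina of 1 control eye, the eye left at normal pressure in each of 6 mice. Members were chosen by their labels alone, and genes were then ranked by their mean level over the 6 eyes and by their spread between eyes. All 6 mice carried the p16-3MR transgene, in which the regulatory region of the senescence gene p16 drives a fusion of Renilla luciferase, a red fluorescent protein and a viral thymidine kinase. Mice 3, 4 and 6 were given PBS, and mice 1, 2 and 5 were given 25 mg/kg ganciclovir (GCV) once a day, which the viral kinase turns into a toxic product. In every mouse the other eye had been held at an intraocular pressure (IOP) of 85 to 90 mm Hg for 60 min under anaesthesia, and both retinas were collected 3 days later, at 12 to 16 weeks of age. A control eye is therefore the fellow eye of an injured eye in an anaesthetised transgenic animal, and no retina of an untouched mouse was used here. GCV was not tested. Values are FPKM (fragments per kilobase of transcript, scaled to the fragments of each library), which are per length, so that genes can be ranked within an eye.

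The retina is a layered sheet of neurons in which rods and cones turn light into an electrical signal, bipolar, horizontal and amacrine cells process it, and ganglion cells send it through the optic nerve. Müller glia span the sheet, astrocytes and microglia lie in its inner layers, and the retinal pigment epithelium (RPE) behind it feeds the photoreceptors and recycles their chromophore. Rods are by far the most numerous cells of the mouse retina and are known for packing their outer segments with the proteins of phototransduction. In bulk tissue, fewer cells of a type and less RNA per cell cannot be told apart.

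Of 24340 gene rows, 17843 were above 0 in at least 1 control eye, 14771 were above 0 in all 6, and 6497 were listed at 0 in every control eye. A mean of at least 1 FPKM was reached by 12566 genes, of at least 100 FPKM by 663 and of at least 1000 FPKM by 24. The sums over all rows lay between 424131 and 464281 FPKM per eye. From the steps between low values, the depth was estimated at 6880000 to 9120000 fragments per control eye, with 81.0 to 87.6% of 210 to 234 values within 0.15 of a whole number of fragments. These estimates rest on transcript lengths of a reference and give no exact counts. The fellow eyes reached from 4010000 to 8780000 fragments, and the IOP-treated eye of mouse 6 was the shallowest library of the series.

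Rod genes filled the top of the ranking. Gnat1, the alpha subunit of the rod G protein transducin, was at 17212, 12336, 18196, 14014, 13465 and 16101 FPKM in mice 1 to 6, a mean of 15221 ± 2300 (SD, n = 6). Mouse 3 was the highest and mouse 2 the lowest. Pdc, phosducin, which binds transducin beta-gamma, ranked next in every eye, at 8650, 5600, 8258, 7347, 6758 and 6987 FPKM. Gngt1, the gamma subunit of rod transducin, had a mean of 5469 ± 675 FPKM, Sag, the rod arrestin, 4842 ± 564, and Pde6g, the inhibitory subunit of the rod phosphodiesterase, 4826 ± 626 (SD, n = 6 for each). Gngt1 was above Sag in all 6 eyes and above Pde6g in 5 of 6, whereas Sag and Pde6g each led in 3 eyes.

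**Figure D1:**
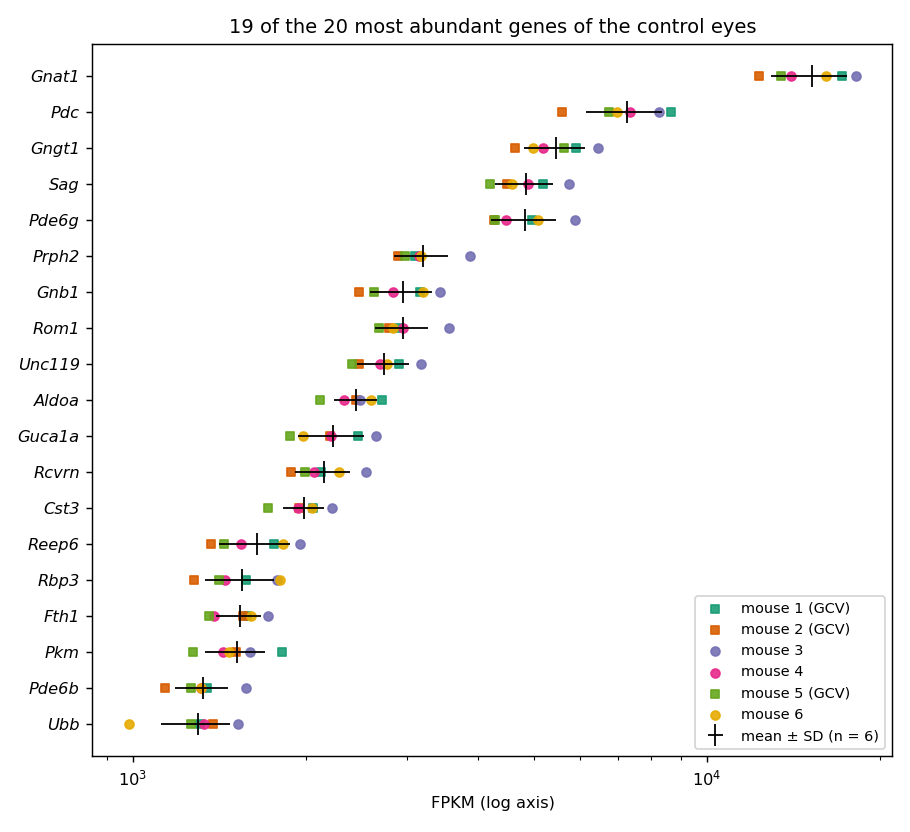
FPKM of 19 of the 20 most abundant genes (log axis) in each of the 6 control eyes, with circles for mice without GCV, squares for mice with GCV, and the mean with its SD in black. Gnat1 lies between 12336 and 18196 FPKM and the 20th gene, Ubb, between 984 and 1525, and mouse 3 is at or near the right end for most rod genes.

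Further down, Prph2 (3198 ± 348 FPKM) and Rom1 (2954 ± 310) encode the tetraspanins that shape the rims of the outer segment discs. Gnb1, the transducin beta subunit, stood at 2955 ± 366 FPKM, Guca1a, which makes guanylate cyclase respond to calcium, at 2234 ± 291, and Rcvrn, the calcium sensor recoverin, at 2152 ± 237. Unc119, which carries lipidated transducin, stood at 2742 ± 286 FPKM, and Rbp3, the retinoid carrier between photoreceptors and RPE, at 1550 ± 212. Reep6, needed for membrane trafficking in rods, had 1648 ± 233 FPKM, and the catalytic subunit gene Pde6b 1325 ± 142 (SD, n = 6 throughout). Only 5 of the 20 genes have no specific tie to photoreceptors: Aldoa (2451 ± 209 FPKM) and Pkm (1519 ± 182) of glycolysis, the secreted protease inhibitor Cst3 (1991 ± 166), the ferritin heavy chain Fth1 (1535 ± 138) and the polyubiquitin gene Ubb (1299 ± 178). Just outside lay Pde6a, at 1204 ± 176. Of the 20 genes, 13 were in the list of 27 rod genes, and 17 were among the 20 most abundant of every single eye.

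The ranking was steep. The 20 most abundant genes of each eye made 20.2 ± 1.73% of its summed FPKM (SD, n = 6; range 17.7 to 22.7%), and the 100 most abundant made 29.5 to 34.6%. Between 406 and 558 genes together made 50% of an eye's sum. Mouse 2, whose rod genes were low, was at the lower end of all of these shares, and mouse 3 at the upper end.

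The start regions of these genes were searched for 1 letter pattern. CRX is a transcription factor of photoreceptors that is known to bind the core TAATCC, which reads GGATTA on the other strand. Promoter sequences (RefSeq, GRCm38.p6, 250 bases before to 50 after each annotated start) were held for 15 of the 20 most abundant genes and for 18 of the 27 rod genes. The pattern, on either strand, was in 5 of the 15 (33.3%) and in 9 of the 18 (50%), against 2199 of all 27025 genes with a promoter (8.14%). The 250 bases before the start are shown for 4 of the 5, chosen as the photoreceptor genes with a single annotated start, with the pattern in capitals. They lie at chr6:3993758-3994007 (plus strand, Gngt1), chr1:87803430-87803679 (plus strand, Sag), chr17:47400607-47400856 (minus strand, Guca1a) and chr14:33953753-33954002 (plus strand, Rbp3).
Gngt1: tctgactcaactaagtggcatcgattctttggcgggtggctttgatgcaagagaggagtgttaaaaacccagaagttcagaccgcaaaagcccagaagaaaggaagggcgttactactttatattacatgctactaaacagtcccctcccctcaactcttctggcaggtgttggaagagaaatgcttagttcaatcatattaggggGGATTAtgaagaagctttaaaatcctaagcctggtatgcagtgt
Sag: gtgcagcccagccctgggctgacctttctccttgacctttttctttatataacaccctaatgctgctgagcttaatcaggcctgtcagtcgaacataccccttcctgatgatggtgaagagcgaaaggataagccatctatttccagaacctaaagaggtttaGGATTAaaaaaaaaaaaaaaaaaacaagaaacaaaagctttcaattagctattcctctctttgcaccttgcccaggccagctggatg
Guca1a: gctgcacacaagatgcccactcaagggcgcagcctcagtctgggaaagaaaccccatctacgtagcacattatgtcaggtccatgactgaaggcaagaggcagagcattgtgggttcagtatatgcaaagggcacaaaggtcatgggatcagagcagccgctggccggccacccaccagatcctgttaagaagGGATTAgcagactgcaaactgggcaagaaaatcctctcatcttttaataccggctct
Rbp3: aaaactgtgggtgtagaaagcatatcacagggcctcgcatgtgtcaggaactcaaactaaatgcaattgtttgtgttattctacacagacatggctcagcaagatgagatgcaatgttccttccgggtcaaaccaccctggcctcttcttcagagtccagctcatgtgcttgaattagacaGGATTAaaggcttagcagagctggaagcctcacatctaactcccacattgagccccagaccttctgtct
In all 4 the letters read GGATTA on the gene's strand, 44 (Gngt1), 87 (Sag), 57 (Guca1a) and 69 (Rbp3) bases before the start. The fifth gene was Unc119, where only 1 of 3 annotated starts had the pattern, 118 bases before it. In Pdc, Prph2, Gnb1, Rom1 and Pde6b these letters were not in the window. A match is a description of the sequence, and binding was not measured.

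Among the marker lists, rods took by far the most of the sum. The 27 rod genes made 18.6 ± 1.71% of the summed FPKM (SD, n = 6), with mice 1 to 6 at 18.9, 16.1, 21.3, 18.6, 17.7 and 19.0%. All 27 had a mean of at least 53.3 FPKM, 25 had a mean of at least 100, and 15 of the 24 genes averaging 1000 FPKM or more were among them. The 24 Müller glia genes followed at 0.808 ± 0.0618%, led by Glul, glutamine synthetase (952 ± 125 FPKM), the lipid carrier Apoe (615 ± 129) and clusterin, Clu (590 ± 92.3). The 16 cone genes made 0.502 ± 0.0462%. Pde6h, the inhibitory subunit of the cone phosphodiesterase, had 496 ± 63.3 FPKM, and Gngt2, the gamma subunit of cone transducin, 344 ± 42.6 (n = 6).

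**Figure D2:**
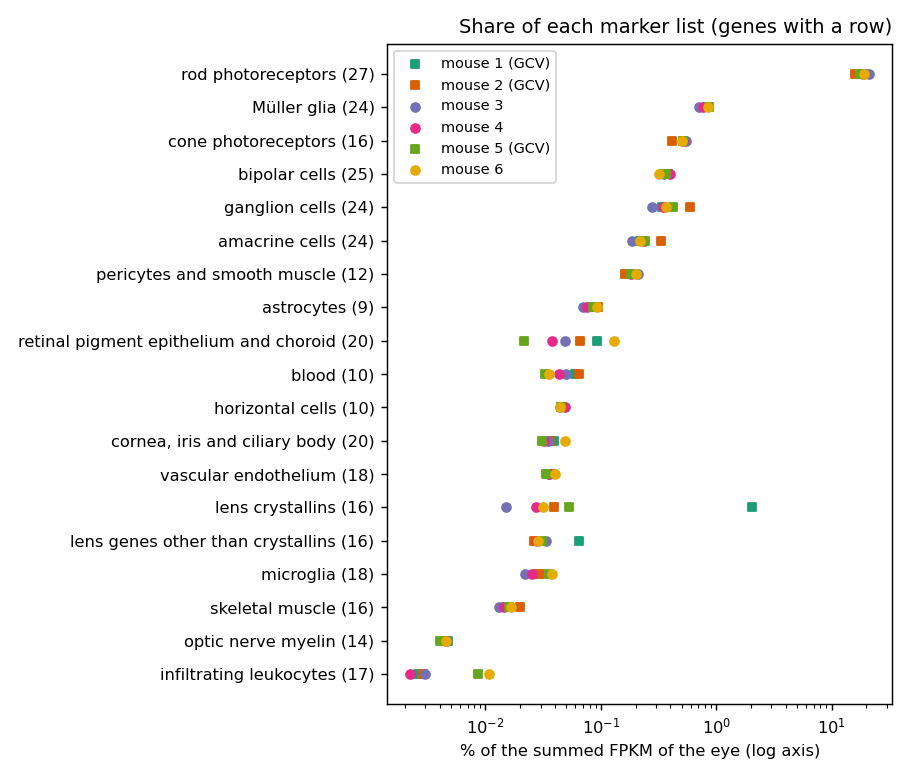
Share of the summed FPKM of each control eye (%, log axis) taken by the genes of each cell type or tissue list, with the number of genes with a row in parentheses, circles without GCV and squares with GCV. Rods stand at 16.1 to 21.3% and all other retinal cell types below 1%, and only the pigment, lens crystallin and leukocyte lists, as whole lists, spread over more than 3-fold between eyes. The summed FPKM of the other lens genes spanned 8.55-fold without Tdrd7. That of cornea, iris and ciliary body genes spanned 5.28-fold without Tkt.

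Cone opsins varied more than the other cone genes. Opn1mw, the medium-wavelength opsin, was at 258.5, 206, 300, 269, 404 and 302 FPKM in mice 1 to 6. Opn1sw, the short-wavelength opsin, was at 296, 213, 335, 231, 123 and 292 FPKM. Mouse 5 thus had the highest level of the first and the lowest of the second. The opsins are expressed in opposite gradients across the mouse retina. The SD of log2(FPKM + 1) was 0.32 for Opn1mw and 0.52 for Opn1sw, and 0.14 for Gnb3, the cone transducin beta subunit (253 ± 23.2 FPKM). Opn1sw was the 1 cone gene of 16 among the 5% most variable genes.

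Second-order neurons took less of the sum. The 25 bipolar genes made 0.362 ± 0.0285%, led by Gnb5 (441 ± 32.8 FPKM), a G protein beta subunit gene. Which cells gave the Gnb5 RNA cannot be told in bulk tissue. Next came Gng13 (309 ± 45.8 FPKM), a G protein subunit of the ON bipolar cascade, and Pcp2 (261 ± 39.2), a marker of rod and ON bipolar cells. Of the 25 genes, 18 were lowest in mouse 6, where Pcp2 was 191 FPKM against 250.3 to 305.5 in the other eyes. The 24 amacrine genes made 0.239 ± 0.0506%, with the calcium buffer calretinin, Calb2, at 515, 839, 437, 485, 504 and 510 FPKM in mice 1 to 6, followed by the transcription factor Pax6 (105 ± 11.1 FPKM). Calb2 and Pax6 are also made by ganglion cells. For horizontal cells, 10 of 11 genes had a row and made 0.0455 ± 0.00173%. Ndrg1 (112 ± 9.61 FPKM) and Tpm3 (31.5 ± 3.79), the most abundant of them, are widely expressed, while the defining factor Lhx1 was at 0.896 to 1.66 FPKM.

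Ganglion cell genes, 24 in number, made 0.391 ± 0.108% of the sum. Sncg, gamma-synuclein, was at 497, 700, 346, 407, 510 and 451 FPKM in mice 1 to 6, and the neurofilament gene Nefl at 235, 420, 219, 227, 282 and 265.5. Thy1, a surface protein of ganglion cells, was at 223, 394, 188, 219, 242 and 235 FPKM. Mouse 2 stood above all other eyes in each of the 3, and mouse 3 was the lowest.

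The lists of astrocytes, microglia and vascular cells took small shares of the sum. The 9 astrocyte genes made 0.0834 ± 0.00931%, most of it from Aldoc (303 ± 28.1 FPKM), which Müller glia share. Without Aldoc the list summed to 46.6 to 117 FPKM, highest in mouse 6. Gfap, the intermediate filament of astrocytes, was at 9.62, 19.8, 12.2, 9.69, 21.8 and 33.3 FPKM. The 18 microglia genes made 0.0300 ± 0.00609%, with the lysosomal gene Ctss at 24.4 ± 6.48 FPKM and the complement gene C1qb at 21.1 ± 4.83. Endothelial genes made 0.0360 ± 0.00228%, of which most was the glucose transporter Slc2a1 (110 ± 18.2 FPKM), also present in other retinal cells. Kdr, the VEGF receptor, had 17.6 ± 3.23 FPKM and Flt1 10.1 ± 2.33. In the list of pericytes and smooth muscle, Vtn, vitronectin, alone stood at 815 FPKM, and the other 11 genes summed to 13.3 to 24.8 FPKM per eye, with Acta2 at 3.40 to 7.27 and Rgs5 at 2.50 to 7.60.

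Markers of tissues beyond the retina were mostly near the bottom. Optic nerve myelin made 0.00404 to 0.00473%, with Cnp at 7.51 ± 0.512 FPKM and Mbp at 6.80 ± 0.472. Leukocyte genes made 0.00222 to 0.0108%, where Lyz2 (5.84 to 40.15 FPKM) is also a microglial gene and the T cell gene Cd3e was above 0 in mouse 6 only, at 0.271 FPKM. Skeletal muscle genes other than Pvalb, which retinal neurons express, summed to 17.6 to 31.9 FPKM, led by Eno3 (8.31 to 12.7) and Mylpf (2.68 to 7.21). Listed at 0 in all 6 eyes were Cryge and Crygf of the crystallins, Dnase2b of the lens, Opn5, Nkg7 of cytotoxic lymphocytes and Olig2 of the oligodendrocyte lineage, as were Rpl10l, Atp5g2, Cox7b2 and Cox8c, the Y-linked Usp9y, Zfy1, Zfy2 and Sry, and 20 of 68 clustered histone genes. Because genes that every cell uses were also at 0, such as Atp5g2 here and Rpl36 in mouse 6 alone, a value of 0 in these data says only how a gene is listed.

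Among functions, 34 phototransduction genes took 17.2 ± 1.59% of the sum. The 83 nuclear-encoded subunits of oxidative phosphorylation came next at 3.24 ± 0.0647%, a share that differed by only 1.06-fold between the lowest and the highest eye. Their most abundant members were Ndufa4 (951 ± 82.7 FPKM), Atp5b of the ATP synthase (847 ± 56.2) and Uqcrh of complex III (779 ± 68.3). Genes encoded by the mitochondrial genome were not analysed here. Glycolysis made 1.61 ± 0.0844%, with Tpi1 next after Aldoa and Pkm at 667 ± 77.6 FPKM. Photoreceptors are known for glycolysis in the presence of oxygen, and the lactate dehydrogenase gene Ldha (618 ± 42.1 FPKM) stood above Ldhb (118 ± 17.5). Gapdh, an enzyme of the same pathway, was at only 3.07 to 5.12 FPKM. Gapdh has many near-identical pseudogenes, and since the treatment of reads shared with copies is not given in the sources used here, its level is uncertain.

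Cytosolic ribosomal proteins, 84 rows, made 1.59 ± 0.0381%, led by Rpl41 (990 ± 94.0 FPKM), Rpl8 (573 ± 30.6) and Rpl4 (487 ± 40.3). The 32 genes of synaptic vesicles and active zones made 1.58 ± 0.0597%. Snap25, a membrane fusion protein, had 1046 ± 142 FPKM, Slc17a7, the vesicular glutamate transporter of photoreceptors and bipolar cells, 998 ± 119, and Syp, synaptophysin, 919 ± 49.8. Of the clustered histone genes, Hist1h2bc (350 ± 38.2 FPKM), Hist3h2a (163 ± 29.7) and Hist3h2ba (85.1 ± 8.61) were highest. In a library of RNA selected by its poly(A) tail, histone mRNAs without a tail are largely lost. Proliferation genes made 0.0123 ± 0.000637%, with Pcna at 33.5 ± 4.10 FPKM, Ccna2 at 7.002 ± 0.923 and Mcm2 at 4.66 ± 0.626.

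The spread between eyes was small for most genes. Over the 12566 genes that averaged 1 FPKM or more, the SD of log2(FPKM + 1) over the 6 eyes had a median of 0.148, with 0.077 at the 10th and 0.302 at the 90th percentile. In 2782 genes (22.1%) it was under 0.1, in 313 it was at least 0.5, and in 89 at least 1. Genes of 1 to 2 FPKM had a median SD of 0.225, genes of 10 to 100 FPKM 0.123, and the 24 genes of at least 1000 FPKM 0.179. Thus the most abundant genes, largely rod genes, were more variable than genes of middle level. Any 2 control eyes differed by a median of 0.104 to 0.164 on the log2 scale over 6624 genes of at least 10 FPKM. The corresponding range was 0.145 to 0.461 for 2 IOP-treated eyes and 0.143 to 0.471 for the 2 eyes of 1 mouse. Both upper ends came from the IOP-treated eye of mouse 6, the shallowest library, and without it the ranges ended at 0.258 and 0.255.

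**Figure D3:**
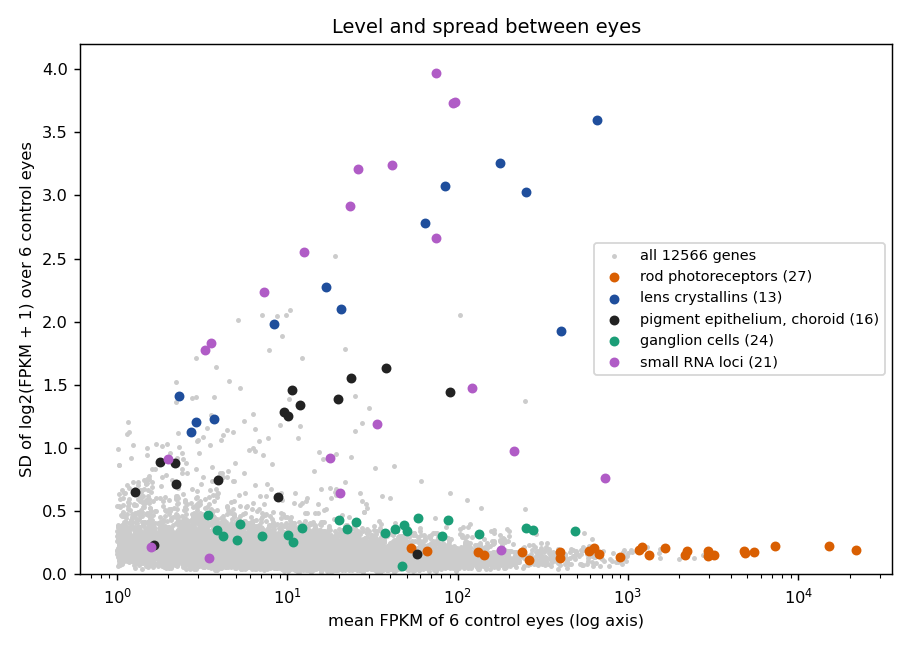
Mean FPKM over the 6 control eyes (log axis) against the SD of log2(FPKM + 1) between them for 12566 genes (grey), with 5 gene lists in colour. The 27 rod genes lie below an SD of 0.25 at the right, whereas all 13 crystallins, 14 of 16 pigment epithelium and choroid genes and 18 of 21 small RNA loci lie among the 5% with the largest spread, above 0.377. Small RNA loci listed at 0 in 5 eyes lie there by construction.

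The 5% most variable genes, 629 with an SD above 0.377, were filled unevenly by the lists. They held 13 of 13 lens crystallins with a mean of at least 1 FPKM, 14 of 16 genes of RPE and choroid, 11 of 12 of cornea, iris and ciliary body, 18 of 21 small RNA loci and 9 of 18 of reactive gliosis. They held none of 27 rod, 25 bipolar, 9 horizontal and 23 Müller glia genes, and none of 20 circadian clock, 14 immediate early, 19 glycolysis and 21 cholesterol synthesis genes. Against the 5.01% of all genes, 0 of so few genes is no result about these lists. Cytosolic ribosomal proteins had 13 of 64 and heat shock chaperones 3 of 20 among the 629. In no list were 474 of the 629. A gene at 0 in 5 eyes that averages 1 FPKM has an SD above 0.377 by construction. The small RNA share was thus in part fixed by the filter and is no result about these loci. Without mouse 1 only 11 crystallins averaged 1 FPKM, and without mouse 6 only 14 genes of RPE and choroid did. The others passed the filter only through that eye.

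Lens genes were among the most variable, and apart from small RNAs only Cryaa and Cryba1 had a larger SD than Xist, described below. Cryaa, which encodes the lens chaperone alpha-A crystallin, was at 3848, 25.1, 1.34, 14.1, 52.4 and 13.8 FPKM in mice 1 to 6. Crybb2, a structural beta crystallin, was at 1423, 28.8, 1.92, 12.0, 35.4 and 10.1 FPKM. Mouse 1 was the highest eye for all 13 crystallins of at least 1 FPKM, and mouse 3 the lowest for 10 of them. The 16 crystallin rows summed to 9474 FPKM in mouse 1, 2.04% of its total, and to 70.5 to 226 FPKM in the other 5 eyes. Cryab, made by retinal cells too, was at 2032 FPKM in mouse 1 and at 63.1 to 96.5 elsewhere. The other crystallins above 1 FPKM moved alike. Cryba1 was at 1031 FPKM in mouse 1 and at 0.501 to 20.3 elsewhere, Cryba2 at 490 and 0.467 to 7.89, Crygs at 363 and 0.478 to 10.8, Crybb3 at 107 and 1.04 to 5.72, and Cryba4 at 91.8 and 0.221 to 3.48.

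Lens genes that are no crystallins were high in the same library. The lens fibre channel gene Mip was at 49.0, 1.12, 0.391, 0.500, 0.516 and 0.464 FPKM in mice 1 to 6, and the lens galectin gene Grifin at 40.3 FPKM in mouse 1 and 0 to 1.17 elsewhere. By contrast Tdrd7 (128.9 FPKM in mouse 1, 87.9 to 134 elsewhere) and Prox1 (13.9 and 10.9 to 15.6), which retinal cells express, did not set mouse 1 apart. In all, 31 genes were at least 1 log2 unit above every other control eye in mouse 1, 19 of them in the lens lists. Leaving out mouse 1, 10 of 11 crystallins that still averaged 1 FPKM were among the 5% most variable. Of the 10 other lens genes only 4 still averaged 1 FPKM, and none of the 4 was among the most variable. The rest, which had reached 1 FPKM only through mouse 1, dropped out, so this is no result about the other lens genes. The share of lens tissue in this library was not tested.

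**Figure D4:**
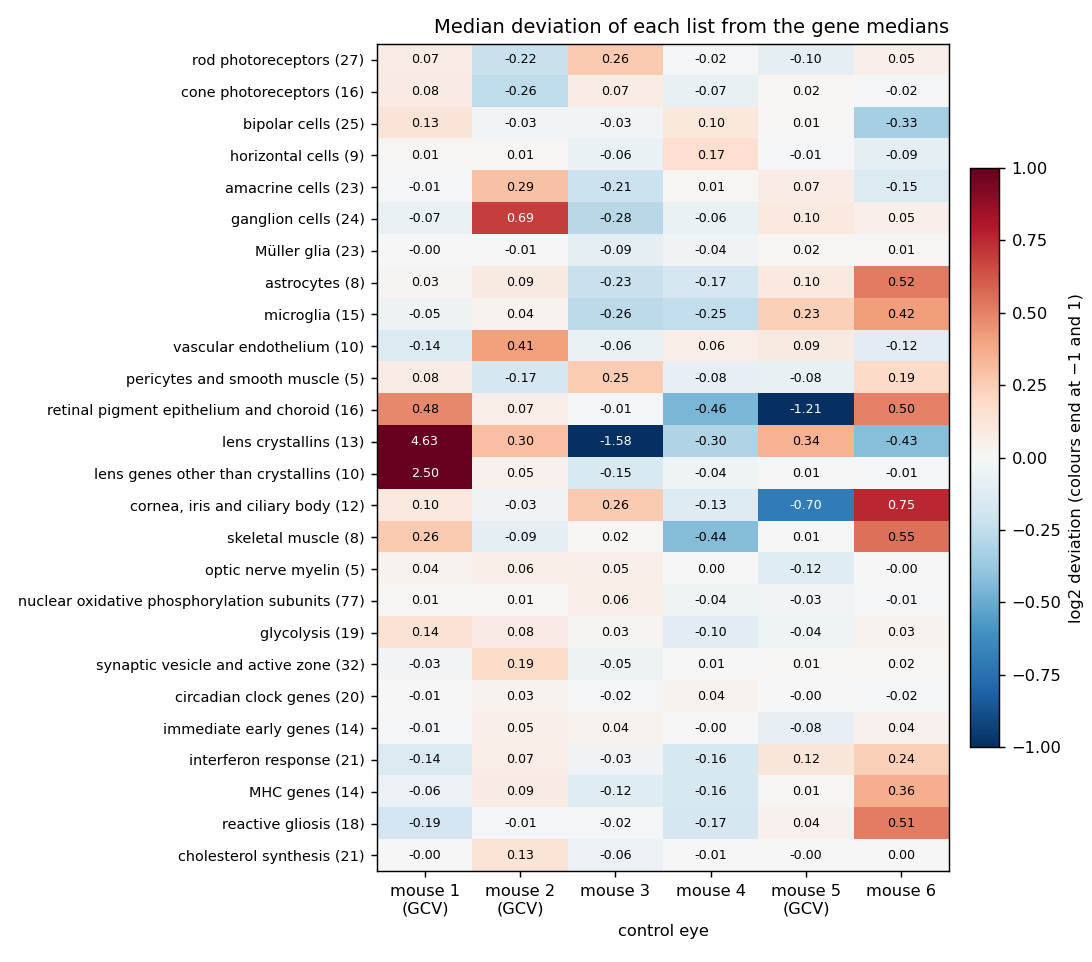
Median, over the members with a mean of at least 1 FPKM, of the log2 deviation of each control eye from the gene's median over the 6 eyes, for 26 lists (rows, number of members in parentheses) and 6 eyes (columns). Crystallins stand at 4.63 in mouse 1, ganglion cell genes at 0.69 in mouse 2, pigment epithelium and choroid genes at -1.21 in mouse 5, and gliosis genes at 0.51 in mouse 6, while clock, immediate early and oxidative phosphorylation genes stay within 0.10 of 0.

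Genes of the list of RPE and choroid did not all follow 1 order over the eyes. Rpe65, the isomerase of the visual cycle in the RPE, was at 22.3, 16.7, 5.45, 4.32, 0.955 and 7.72 FPKM in mice 1 to 6. Ttr, which carries thyroid hormone and retinol, was at 181, 132, 67.4, 45.3, 10.2 and 104 FPKM, and Rgr, an RPE opsin, at 47.3, 28.3, 14.8, 10.8, 1.87 and 14.9. These 3 genes were highest in mouse 1 and lowest in mouse 5. The melanin genes named here were in another order. Dct was at 23.1, 8.92, 21.8, 9.42, 5.90 and 158 FPKM and Mlana at 19.0, 7.98, 10.6, 7.81, 2.97 and 92.7. Both were highest in mouse 6, as were Tyrp1 (39.2 FPKM against 1.24 to 10.2) and Pmel (36.1 against 2.52 to 9.305). Melanin genes are expressed in the choroid, iris and ciliary body as well as in the RPE. Of the 16 genes of at least 1 FPKM, 6 were highest in mouse 1, 1 in mouse 2 and 9 in mouse 6, and 13 were lowest in mouse 5. No split of the list was set beforehand. Without Krt18 (57.9 ± 6.36 FPKM), an epithelial keratin that varied little, the list summed to 36.2 FPKM in mouse 5 and 504 in mouse 6, a 13.9-fold range.

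Mouse 6 also led the list of cornea, iris and ciliary body, in 7 of 12 genes. The matrix gene Dcn was at 5.69, 2.075, 5.34, 3.70, 1.97 and 18.6 FPKM, the keratin gene Krt5 at 3.40, 5.65, 5.79, 5.42, 3.09 and 15.2, and Mfap4 at 2.55, 0.386, 19.7, 1.55, 0.757 and 21.8. Tkt, the most abundant gene of that list (113 ± 14.2 FPKM), is expressed in all cells and did not follow them, and Col9a1 (4.27 to 10.8 FPKM) did so only in part. Gja1, the gap junction protein of astrocytes, RPE and ciliary epithelium, was at 8.12, 1.99, 11.5, 2.61, 2.58 and 34.5 FPKM. Ptgds, which makes prostaglandin D and was chosen after its values were seen, was at 310, 184, 284, 106, 37.6 and 575.

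Most gliosis and microglia genes were highest in mouse 6 as well. Serpina3n, a marker of reactive glia, was at 12.0, 11.3, 12.3, 9.43, 18.9 and 85.4 FPKM in mice 1 to 6. C1qb was at 18.8, 21.6, 14.5, 20.6, 21.9 and 29.3 FPKM, and B2m, the light chain of MHC class I, at 97.8, 109, 82.4, 81.2, 106 and 165. The highest value lay there for 14 of 18 gliosis genes, 11 of 15 microglia genes and 8 of 14 MHC genes of at least 1 FPKM. It lay there for 9 of 21 interferon response genes, with 7 highest in mouse 5, and for 1 of 4 leukocyte genes. The share of all genes that were highest in mouse 6 was not counted. The neutrophil gene S100a8 was at 1.14, 2.90, 0.579, 0.970, 11.6 and 2.04 FPKM, highest in mouse 5. Metallothioneins, the most abundant gliosis genes together with Vim (78.7 ± 17.9 FPKM), moved less, with Mt1 at 149 ± 21.6 and Mt2 at 49.7 ± 6.70. Among interferon response genes after B2m, Ifitm3 was at 47.15 FPKM in mouse 6 and 10.9 to 24.7 elsewhere. The 34 genes that stood at least 1 log2 unit above every other eye in mouse 6 included 5 of the pigment list. The pigment and anterior eye genes moved with the gliosis and microglia genes in this eye, and their part in that result was not tested.

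Rod and ganglion cell lists lay in opposite order in mice 2 and 3. Ganglion cell genes were highest in mouse 2 in 23 of 24 genes and lowest in mouse 3 in 20 of 24, with medians 0.69 and -0.28 log2 units from the gene medians. Rod genes did the reverse: 22 of 27 were highest in mouse 3 and 22 of 27 lowest in mouse 2, with medians of 0.26 and -0.22. Amacrine genes (16 of 23) and synaptic genes (19 of 32) were also mostly highest in mouse 2, and so were 7 of 10 endothelial genes. Of the cone genes, 12 of 16 were lowest in mouse 2. Bipolar genes, with medians of -0.03 in both mice, and horizontal cell genes, at 0.01 and -0.06, lay near 0. The share of all genes that were highest or lowest in each eye was not counted, so these counts have no background beside them.

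Blood genes split between copies. Hbb-b1, a beta globin, was at 121, 126, 111, 83.3, 41.7 and 57.3 FPKM in mice 1 to 6, and Hba-a1, an alpha globin, at 50.9, 8.85, 35.3, 16.7, 10.7 and 19.0. Hba-a2 was at 30.4 FPKM in mouse 2 and below 0.1 in the other 5 eyes, and Hbb-bs at 17.4 FPKM in mouse 2 and below 0.1 in the others. The alpha globin copies are nearly identical, and their sum ran from 10.8 to 50.9 FPKM with mouse 2 at 39.2, so the level of each copy alone is uncertain. Hbb-bt was at 3.46 to 13.0 FPKM and Alas2, of haem synthesis in red cells, at 0.329 to 1.65. Bpgm (51.2 ± 6.06 FPKM) did not follow the globins. A like exchange was seen in Amd1, listed at 13.0 FPKM in mouse 2 and about 0.05 elsewhere, and its copy Amd2, at 6.27 FPKM in mouse 2 and 19.8 to 23.3 elsewhere, whose sum stayed between 19.3 and 23.4. Both genes were chosen after their values were seen.

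Small RNA loci were 18 of the 629 most variable genes but took many of the first places. Of the 20 genes with the largest SD, 9 were small RNA loci (Mir719, Mir8104, Mir8103, Mir3473e, Mir8097, Snora44, Snord22, Mir466i and Mir6244). Mir8104 was at 574 FPKM in mouse 6 and listed at 0 in the other 5 eyes, and Mir719 was at 327 FPKM in mouse 6, 121 in mouse 3 and 0 elsewhere. For miRNA and snoRNA loci, which are short, a few fragments give a large FPKM, and RNA selected by its poly(A) tail does not measure mature miRNAs. Of the 1286 loci of the list, 1260 were listed at 0 in every control eye. The most abundant was Rn45s, followed by Rpph1 and Mir124a-1hg. Rn45s, the ribosomal RNA precursor, and Mir124a-1hg, a miRNA host transcript, are long RNAs that the list holds by name. Snhg9, a snoRNA host gene, was at 0 in mice 1 and 3 and above 9 FPKM in the others.

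Clock, immediate early and cholesterol synthesis genes were among the lists with no member in the 5% most variable. The retina runs a circadian clock of its own, and the 22 clock genes made 0.156 to 0.181% of the sum. Nr1d1, a repressor in the clock loop, was at 113, 114, 112, 110.2, 98.0 and 113 FPKM in mice 1 to 6, and the clock output gene Dbp at 102, 101, 86.1, 99.8, 96.0 and 82.7. Mouse 5 was the lowest eye for Nr1d1, below the other 5, which lay within 110.2 to 114 FPKM, and mouse 6 was the lowest for Dbp. Drd4, a dopamine receptor of photoreceptors with a daily rhythm, had 135 ± 21.0 FPKM, and Arntl, which encodes the activator BMAL1, 40.3 ± 3.59 (SD, n = 6). Immediate early genes, which respond within minutes to stimulation and to handling of tissue, made 0.0399 to 0.0447%, with Fos at 3.50 to 5.89 FPKM, Egr1 at 3.76 to 7.88 and Jun at 12.2 to 15.7. Among cholesterol synthesis genes, Hmgcs1 had 53.0 ± 5.17 FPKM and Msmo1 40.4 ± 2.79. The smallest SD of any gene of at least 10 FPKM was that of B230219D22Rik, at 34.5 to 35.3 FPKM. It was followed by Dcaf11, Ppp6r3, Naa35, Smg6, Kctd3, Armc9, Zfr, Chd8 and Pigk.

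Whether a difference between control eyes belonged to the mouse was asked with the fellow eyes, by a limma F test over both eyes for differences between mice of 1 treatment group. Of 18509 genes tested, 5 passed an adjusted p of 0.05 (0.027%), and 684 (3.70%) had an unadjusted p under 0.05. All 5 lie on the sex chromosomes. Xist, the RNA that silences 1 X chromosome in female cells, was at 0.0220, 0.0430, 0.0213, 0.0680, 73.3 and 80.6 FPKM in the control eyes of mice 1 to 6 and at 0.0344, 0, 0.0523, 0.0515, 45.6 and 31.7 in their fellow eyes (adjusted p = 0.00106). Eif2s3y, a Y-linked translation factor gene, was at 31.3, 21.0, 29.9, 32.3, 0 and 0 FPKM in the control eyes and at 32.0, 32.9, 38.3, 40.6, 0 and 0 in the fellow eyes (adjusted p = 0.000123). Ddx3y (adjusted p = 0.000516), Uty and Kdm5d (adjusted p = 0.00106 for each) were likewise at 0 in both eyes of mice 5 and 6. The labels used here give no sex, and mice 5 and 6 belong to different treatment groups.

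**Figure D5:**
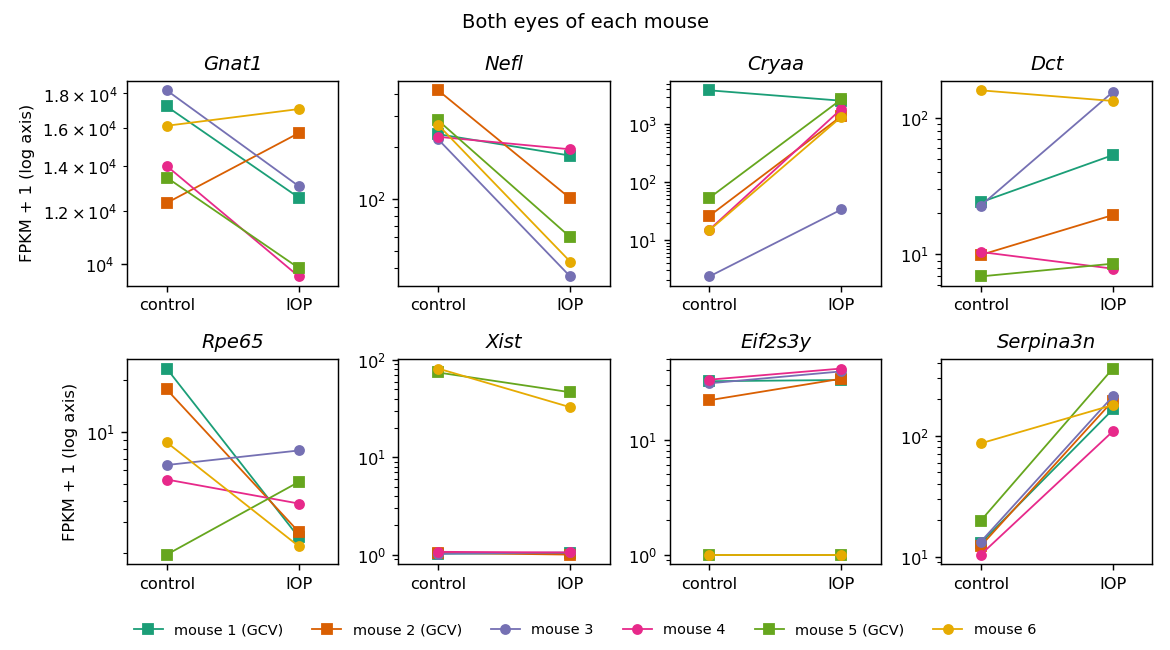
FPKM + 1 (log axis) of 8 genes in the control and the IOP-treated eye of each mouse, joined by a line, with squares for mice with GCV and circles for mice without. Xist is high and Eif2s3y at 0 in both eyes of mice 5 and 6, whereas Cryaa is high in the control eye of mouse 1 alone (3848 FPKM) and in 5 of 6 IOP-treated eyes (1345 to 2700 FPKM).

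No lens, pigment or gliosis gene passed this test. At the 0.027% called over all genes, 0 of so few is no result about these lists. Cryaa was at 2545, 1380, 32.6, 1842, 2700 and 1345 FPKM in the fellow eyes of mice 1 to 6, Dct at 52.4, 18.4, 154, 6.86, 7.55 and 132 and Serpina3n at 163, 193, 209.9, 108, 357 and 178. The genes next in rank were Defb11 (adjusted p = 0.0777), Aldh1a1 (0.109), Hist1h2bp (0.112), Sprr2g (0.177) and Cnfn (0.332). Gja1 lay just outside (0.345 in limma). The fellow eyes had been injured, so a difference that pressure abolished would not be seen.

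The same genes were then compared between IOP-treated and control eyes with limma, as a reading of which baseline genes moved after pressure. Of 18509 genes, 1252 were higher (6.76%) and 1006 lower (5.44%) after IOP at an adjusted p of 0.05, and the median change was 0.0089 log2 units. Of these calls 55.4% were higher, against 71.2% with values scaled to a sum of 1000000 and 41.9% with quantile normalization, and 788 to 4499 genes were called when 1 eye was left out (788 without the control eye of mouse 4 and 4499 without its IOP-treated eye). None of the 20 most abundant genes and none of 27 rod genes passed, with a median change of -0.22 in both sets. At the shares called over all genes, 0 of so few is no result about them. The rod median was -0.098 without the IOP-treated eye of mouse 4 and -0.13 without that of mouse 5, and 1 higher and 2 lower rod genes were called with quantile normalization. Of 24 ganglion cell genes 18 were lower and 1 higher, with a median of -1.14. Nefl was at 176, 99.8, 34.8, 192, 59.3 and 42.6 FPKM in the IOP-treated eyes of mice 1 to 6, against 219 to 420.4 in control eyes. Other lists fell too. Lower were 9 of 24 amacrine genes (median -0.84), 12 of 32 synaptic genes (-0.54) and 15 of 21 cholesterol synthesis genes (-0.46, with 1 higher). Bipolar genes had a median of -0.67, with 1 of 25 lower. All 29 interferon response genes and all 20 gliosis genes were higher, as were 14 of 18 microglia genes, and 1 other microglia gene was lower. Markers of other tissues moved with them: 7 of 17 leukocyte genes were higher, and 8 of 15 crystallins, with a median of 3.66 (0 to 11 crystallins with 1 eye left out). Their part in these results was not tested. With the mouse as a block, 8 ganglion cell genes were lower, and with 1 eye left out 2 to 20 were. The same counts were 8 and 2 to 18 for amacrine, 1 and 0 to 20 for synaptic, and 10 and 10 to 15 for cholesterol synthesis genes. Naa35, ranked among the 10 least variable genes on these same control eyes, was at 27.3 to 28.5 FPKM there and at 42.2 to 72.0 FPKM in the IOP-treated eyes, a description with no test, since the ranking fixed its spread.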

How the data were processed

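Retinal RNA was sequenced in 12 libraries from both eyes of 6 mice, and the 6 control eyes were described here. Per the labels and the study's methods, poly(A) RNA was read on an Illumina instrument as paired ends, and the submitters' processing notes name TopHat2, Bowtie2, Cufflinks and Cuffdiff with the build mm10, without versions. The deposited values are FPKM computed by the authors, 1 table of 24340 gene rows for all libraries. The methods describe counting over exons with another tool, and which step gave the FPKM values is not given in the sources used here. Reads shared by near-identical copies make such genes uncertain. Of the row names, 27 had been turned into dates. Mitochondrially encoded genes were not analysed here.

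Levels and shares of the summed FPKM were taken as deposited, and spread as the SD of log2(FPKM + 1) over 6 eyes where a gene averaged 1 FPKM or more (pseudocount 1). Tests used limma 3.58.1 in R 4.3.3 on log2(FPKM + 1), with a variance trend, over 18509 genes above 0 in at least 1 library, Benjamini-Hochberg adjustment and a threshold of 0.05, after the scripts had been tested on simulated data. Fold changes are on the log2(FPKM + 1) scale, which understates the change of low genes. Each group held 3 mice and each value came from 1 eye. No counts were given, so depth was only estimated. Tables were handled with Python 3.11.15, pandas 2.3.3 and numpy 2.4.6.

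Named genes were the 20 most abundant, the 20 most and 10 least variable (the latter of at least 10 FPKM), the 10 with the smallest p between mice, the 3 most abundant of each list, further members of 5 lists, and list members at 0 in all control eyes. Some genes that these rules name are not reported here. Other genes were named to show how a list varied and were chosen after their values were seen. The members and lists were chosen with earlier results of these data known. Alternatives changed the pseudocount, filter, scaling, variance trend and threshold, left out each eye, and added a replicate block. Leaving out small RNA loci, counting variable list members without each eye and summing lists without 1 dominant member were added after seeing the data. Counts of list members highest or lowest in an eye were not set against the same count over all genes. Eyes with the same number come from 1 mouse, as the labels give it, and their deviations from the group means correlated at -0.117, 0.132, 0.207, 0.388, 0.166 and 0.0998 in mice 1 to 6 over 12910 genes.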

Additional observations from a re-analysis of the deposited data

Results flagged for a closer look

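Of 93 sets of 6 control-eye values tested with Dixon's criterion at its 95% level, 26 held 1 eye far from the others. Chance sets apart about 1 in 20 sets, but that rate does not apply to the 15 that are genes ranked by their spread between these same eyes, nor to the 3 chosen by p between mice. The others were 6 lists and 2 abundant genes. In mouse 1, the crystallin list summed to 9474.3 FPKM, the other lens genes to 301.132 and the heat shock chaperones to 3533.09, the last of which was 1175 to 1501 FPKM over the 6 eyes once Cryab was left out. Single genes far from the rest in mouse 1 were Cryaa (3848.15 FPKM), Crybb2 (1423.13), Cryba1 (1031.02), Cryba2 (489.994), Crygs (363.059), Crybb3 (107.37), Cryba4 (91.7604), Grifin (40.2956) and the small RNA locus Mir466i (75.4354).

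Amacrine genes summed to 1459.21 FPKM in mouse 2, where Hist1h2bp stood at 0.451252 FPKM. The disc rim genes Prph2 (3874.18 FPKM) and Rom1 (3557.16) were far above the other eyes in mouse 3, as were Defb11 (9.11898), Snora44 (139.875) and Mir6244 (43.4616). In mouse 6, interferon response genes summed to 306.553 FPKM and MHC genes to 331.36, and Mir719 (326.71), Mir8104 (574.104), Mir8103 (566.241) and Sprr2g (0.709922) stood apart. B2m, at a mean of 107 FPKM over the control eyes, is the most abundant member of both lists, so these list sums are not separate results. They were not taken without B2m. Mir3473e was at 245.006 FPKM in mouse 4 and listed at 0 in the other eyes.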

How the results depend on the processing

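The count of genes differing between mice stayed between 4 and 7 under all alternatives run, with Xist lost once (adjusted p = 0.0764 in limma). The count after IOP, 2258, was less stable. It was 1351 with a replicate block, 4131 at an adjusted p under 0.1, and 788 to 4499 when 1 eye was left out, with 788 without control replicate 4 and 4499 without IOP replicate 4. Leaving out any of the 6 control eyes gave 788 to 1080. The share of calls that were higher was 55.4% as reported, 71.2% with values scaled to a sum of 1000000, 41.9% with quantile normalization and 66.2% with the block. The count of genes with an SD of at least 1, 89 as reported, was 176 with a pseudocount of 0.1, 56 with a mean of at least 5 FPKM and 142 with values scaled to a sum of 1000000. Of the 20 most variable genes, 11 to 19 were shared when 1 eye was left out (11 without the control eye of mouse 1), 13 with the coefficient of variation and 11 without small RNA loci. Ganglion cell genes among the 5% most variable numbered 7, 1 without mouse 2 and 14 without mouse 6. Low ganglion cell calls after IOP ranged from 2 to 20 with 1 eye left out. The causes were not tested. No called gene named here changed sign, but many lost the threshold. Over 12 left-out eyes and 6 other alternatives, Sncg lost it 13 times, Cryaa 12 and Nefl 11, while B2m, Gfap and Vim kept it in all. Among the alternative values for single genes and list counts, 172 lost the threshold, 587 stayed the same and 3 moved. Lower calls outnumbered higher ones with quantile normalization (1241 higher, 1719 lower), with at least 1 FPKM in 3 libraries (1305 higher, 1340 lower) and without IOP replicate 4 (1991 higher, 2508 lower). The list median of oxidative phosphorylation went from 0.076 to -0.0055 with quantile normalization. Depth of 6880000 to 9120000 estimated fragments limits genes near 1 FPKM most.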

Other observations

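Some further genes set single control eyes apart, and were chosen after their values were seen. Serpine3 was at 23.5 FPKM in mouse 6 and 0.47 to 3.53 in the other eyes, and Gpnmb, a gene of pigment cells and phagocytes, at 91.5 against 4.43 to 18.8. Sst, the neuropeptide somatostatin of a sparse amacrine population, was at 4.04 FPKM in mouse 5 and 17.2 to 34.4 in the other eyes.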
